A study of Mus musculus with 18 samples.

Results

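Messenger RNA levels of 10 genes that move iron into, hold it in and let it out of cells were examined in the left ventricle of wild-type (WT) mice and of mice with cardiac-specific overexpression of Gαq, the subunit of a heterotrimeric G protein encoded by Gnaq. The 10 genes were chosen by name: Tfrc, Slc11a2 and Slc39a14 (uptake), Fth1, Ftl1 and Ncoa4 (storage and ferritin turnover), Slc40a1 and Hamp (export and its hormone), and Aco1 and Ireb2 (the iron regulatory proteins). All 10 had a row among the 55450 genes counted, and all 10 were among the 16270 genes that passed the filter on low counts. Hamp passed it through 4 libraries alone. Gαq mice and their WT littermates, all on the FVB/N strain, ate control diet (CD) or chow holding 0.5 mg/g of ertugliflozin (ERTU), an inhibitor of the sodium-glucose transporter SGLT2, for 16 weeks from 4 weeks of age. On CD there were 4 WT and 5 Gαq libraries, and on ERTU 5 WT and 4 Gαq libraries, each made from poly(A) RNA of frozen, powdered ventricle. The Gαq transgene acts in heart muscle cells, so the model is one of cell-autonomous cardiac stress, while ERTU reached the whole animal.

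Heart muscle cells need iron for heme and for the iron-sulfur clusters of the respiratory chain. Iron bound to transferrin enters with the transferrin receptor (Tfrc) and crosses the endosome membrane through Slc11a2 (DMT1), while Slc39a14 (ZIP14) carries iron that is not bound to transferrin. Ferritin, a shell of heavy (Fth1) and light (Ftl1) chains, stores iron, Ncoa4 takes ferritin to the lysosome, and ferroportin (Slc40a1) exports iron unless the peptide hormone hepcidin (Hamp) removes it. When iron is scarce, the iron regulatory proteins Aco1 (IRP1) and Ireb2 (IRP2) bind a hairpin in target messages, the iron-responsive element, which blocks translation when it lies in the 5′ UTR and protects the message from decay when it lies in the 3′ UTR.

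The elements are shown because they are what the regulatory proteins bind in the messages of storage, export and uptake. A search of the sense strand of the GENCODE transcripts (build GRCm38, a C57BL/6J reference) looked for a C, 5 bases, the loop CAGTGN and 5 bases that could pair with the first 5, G-U pairs included. It matched the UTRs of 4 of the 10 genes and of 155 of 21886 coding genes (0.708%). The loop is in capitals below, with the stem and flanking bases in lower case, all 5′ to 3′.
Fth1, 5′ UTR, chr19:9982732-9982760, plus strand: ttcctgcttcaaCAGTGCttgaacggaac
Ftl1, 5′ UTR, chr7:45459779-45459807, minus strand: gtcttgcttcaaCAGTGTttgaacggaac
Slc40a1, 5′ UTR, chr1:45925465-45925493, minus strand: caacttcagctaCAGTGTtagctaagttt
Tfrc, 3′ UTR, chr16:32631219-32631247, plus strand: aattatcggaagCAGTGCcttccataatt
Tfrc, 3′ UTR, chr16:32631598-32631626, plus strand: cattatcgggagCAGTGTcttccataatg
Tfrc, 3′ UTR, chr16:32631663-32631691, plus strand: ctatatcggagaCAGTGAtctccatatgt
Tfrc, 3′ UTR, chr16:32631710-32631738, plus strand: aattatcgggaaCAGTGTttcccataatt
Thus the 3 messages with a match upstream of the coding region encode storage and export proteins. The message with 4 matches downstream encodes an importer, Tfrc. Slc11a2, another importer, is in the list of messages known to carry an element (below) but had no match, so the search can miss elements. A match is a description of letters in the reference, and RNA levels do not show translation of ferritin or ferroportin.

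The libraries held 15383566 to 20908363 counted read pairs each. Libraries are named by their group and by the number in the deposited table, which runs through the whole series. Gnaq, the gene of the transgene, was 45.4 to 229.5 CPM (counts scaled to library size) in WT and 1639 to 11662 CPM in Gαq libraries, so each library matched its genotype label. No such check of the diet label was made. Among Gαq libraries, Gnaq averaged 7466 ± 3814 CPM (SD, n = 5) on CD and 3214 ± 1369 CPM (n = 4) on ERTU, with overlap. The part of that gap in the values of ERTU against CD in Gαq hearts was not tested. All 10 cardiomyocyte markers were detected in every group, and their summed level was 69319 to 107172 CPM in WT and 71039 to 99848 CPM in Gαq libraries. The summed level of 8 fibroblast markers was 1469 to 3073 CPM in WT and 2823.5 to 4276 CPM in Gαq libraries. The atrial light chains Myl7 and Myl4 with sarcolipin (Sln) ranged from 2.14 to 702 CPM in sum, and 1 library of each group stood above the rest of its group. In bulk tissue, fewer cells of a type and less RNA per cell cannot be told apart.

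Per length of the principal transcript, and averaged over the 18 libraries, Fth1 stood at 1091 CPM per kilobase and Ftl1 at 162, far above the others. Aco1 (12.9), Slc39a14 (12.7), Slc11a2 (8.92), Ireb2 (8.88), Slc40a1 (7.73), Tfrc (7.33) and Ncoa4 (5.69) formed a narrow middle band in CPM per kilobase, in which Tfrc moved from rank 8 to rank 5 and Slc11a2 from rank 5 to rank 7 when the length of all annotated exons was used. Hamp was lowest at 1.20 CPM per kilobase.

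**Figure D1:**
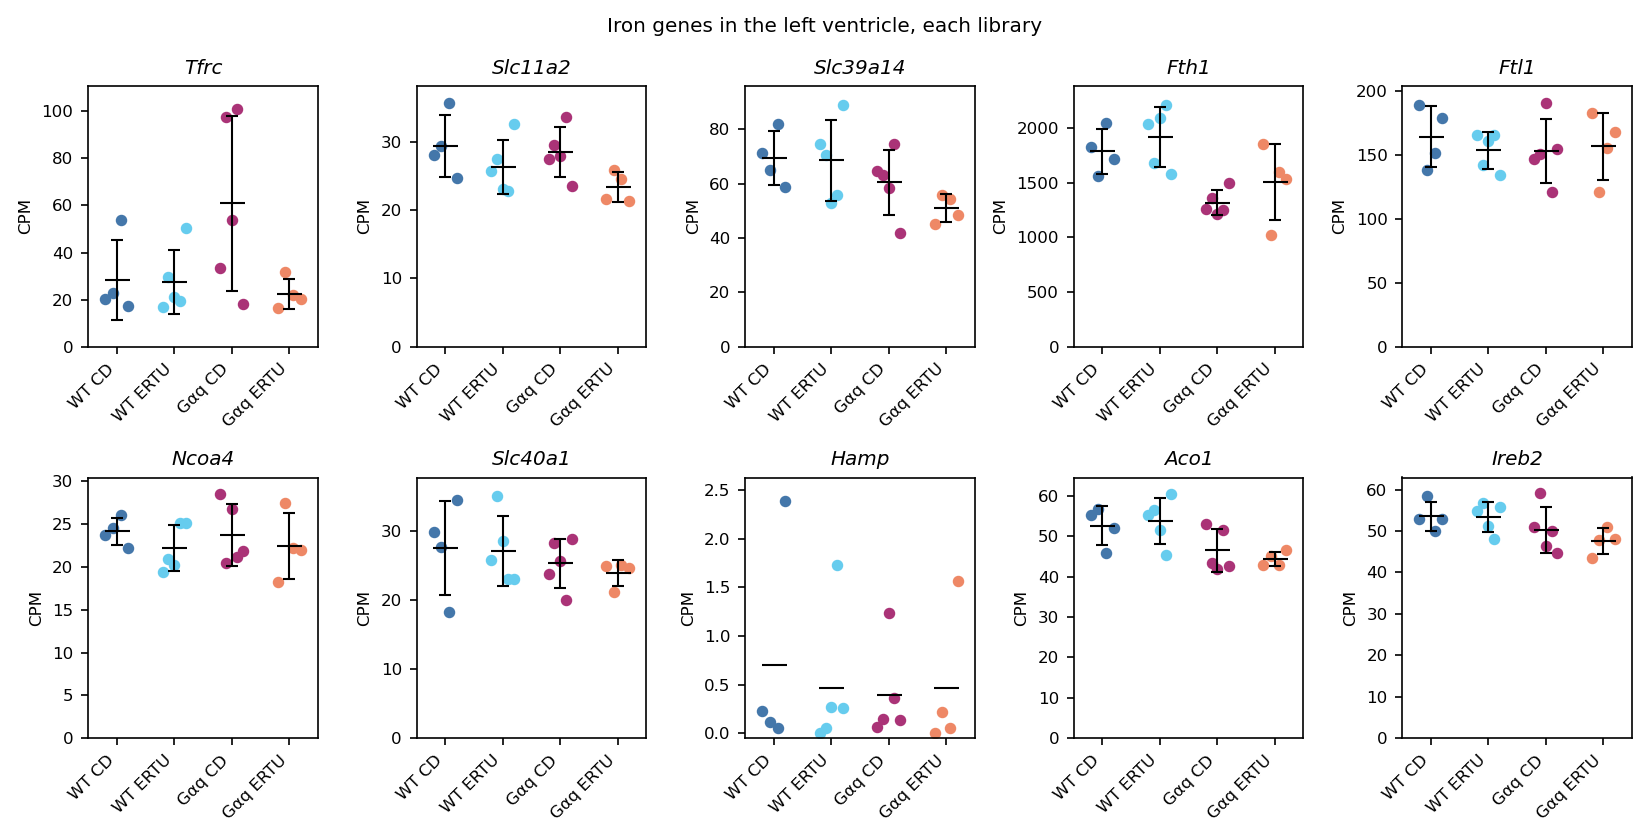
Level of the 10 iron genes in each of 18 left ventricle libraries, in CPM on linear axes, 1 panel per gene and 1 column per group. Points are libraries, and the black bar is the group mean with its SD (mean alone for Hamp, with 4 to 5 libraries a group). Tfrc spreads from 18.3 to 101 CPM among Gαq CD libraries, Fth1 of the Gαq CD libraries lies below that of every WT CD library, and Hamp is near 0 except in 1 library of each group.

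Over both diets, 2 of the 10 genes were called (edgeR quasi-likelihood test, Benjamini-Hochberg adjusted p under 0.05), and both were lower in Gαq hearts: Fth1, the ferritin heavy chain, and Aco1, the regulatory protein IRP1. That share, 20.0%, was the same size as the background, since 19.6% of all genes tested were called by genotype (9.72% higher and 9.92% lower in Gαq). The estimates of 9 of the 10 genes were negative and the median of the 10 was -0.14 on the log2 scale, against 0.00 for all genes. Among the 9, those of Ncoa4, Ftl1 and Hamp lay within their SE of 0. By diet, and for Gαq against WT on CD, 9 of the 10 were negative as well. No member was called in the 6 other comparisons. The background there was 8.1% of genes for Gαq against WT on CD and 8.17% on ERTU, 0.00615% for ERTU in Gαq (1 gene), and 0.0% for ERTU over both genotypes, for ERTU in WT and for the interaction of diet and genotype. The comparisons with 0 genes called had 1252, 365 and 313 genes at an unadjusted p under 0.05, and DESeq2 called 2, 0 and 0 genes in them.

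Among the importers, Tfrc (chr16:32608920-32632794, plus strand, GRCm38, as for all positions) varied most. It was 20.4, 22.7, 53.7 and 17.1 CPM in WT CD libraries 1, 2, 4 and 5. In Gαq CD libraries 6 to 10 it was 33.6, 97.6, 53.8, 101.1 and 18.3 CPM. In WT ERTU libraries 11 to 15 it was 16.7, 29.5, 21.2, 19.4 and 50.5 CPM, and in Gαq ERTU libraries 16, 17, 18 and 20 it was 16.4, 31.5, 22.0 and 20.2 CPM. Thus 3 Gαq CD libraries were at or above the highest library of any other group, while Gαq CD library 10 lay within every group, so all groups overlapped. The group means were 60.9 ± 37.3 CPM (SD, n = 5) in Gαq CD, 28.5 ± 16.96 CPM (n = 4) in WT CD, 27.4 ± 13.8 CPM (n = 5) in WT ERTU and 22.5 ± 6.44 CPM (n = 4) in Gαq ERTU, and the latter 3 lay within each other's spread. On CD the log2 fold change of Gαq against WT was 1.10 ± 0.44 (SE, adjusted p = 0.148 in the edgeR quasi-likelihood test). It ranged from 0.84 to 1.603 when 1 library at a time was left out, with an adjusted p of 0.0414 without WT CD library 4 and of 0.0457 without Gαq CD library 10. ERTU against CD in Gαq hearts gave a log2 fold change of -1.43 ± 0.45 (unadjusted p = 0.0046, adjusted p = 0.653 in the same fit). In WT hearts that difference was -0.06 ± 0.44, and the interaction was -1.38 ± 0.62 (unadjusted p = 0.0391, adjusted p = 0.9996).

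The libraries with high Tfrc were also set apart by Pdk4, which encodes a kinase that holds back pyruvate oxidation and is known to rise in fasting. Pdk4 was 165 CPM in WT CD library 4 against 3497 to 3973 CPM in the rest of that group. It was 150, 261 and 105 CPM in Gαq CD libraries 7, 8 and 9, against 1871 and 1816 CPM in Gαq CD libraries 6 and 10. In each of the 4 groups the library with the highest Tfrc had the lowest Pdk4. That library had the highest Gnaq in WT CD, Gαq CD and Gαq ERTU, and the lowest in WT ERTU (45.4 CPM). WT libraries carry no transgene, so only the Gαq groups bear on transgene level. The part of Pdk4-related state or of transgene level in the Tfrc values was not tested.

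Slc11a2 (chr15:100387898-100425072, minus strand), the endosomal iron transporter DMT1, was far steadier. It was 28.1, 29.4, 35.7 and 24.8 CPM in WT CD libraries 1, 2, 4 and 5, and 27.5, 29.6, 28.0, 33.7 and 23.6 CPM in Gαq CD libraries 6 to 10. On ERTU it was 25.7, 27.5, 23.1, 22.8 and 32.6 CPM in WT libraries 11 to 15 and 21.7, 26.0, 24.6 and 21.4 CPM in Gαq libraries 16, 17, 18 and 20. Its level averaged 25.0 ± 3.503 CPM (SD, n = 9) on ERTU and 28.9 ± 3.86 CPM (n = 9) on CD, with overlap. The log2 fold change by diet was -0.22 ± 0.09 (unadjusted p = 0.0195, adjusted p = 0.639 in the edgeR test).

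Slc39a14 (chr14:70303469-70351425, minus strand), the carrier of iron not bound to transferrin, was 71.4, 65.1, 82.1 and 58.8 CPM in WT CD libraries 1, 2, 4 and 5, and 64.6, 63.0, 58.3, 74.7 and 41.9 CPM in Gαq CD libraries 6 to 10. On ERTU it was 74.6, 70.6, 52.8, 55.6 and 89.0 CPM in WT and 45.0, 55.8, 54.5 and 48.5 CPM in Gαq libraries. The 3 lowest values were all in Gαq libraries, but the genotypes overlapped. Its mean was 56.2 ± 10.3 CPM (SD, n = 9) in Gαq and 68.9 ± 12.1 CPM (n = 9) in WT, and the log2 fold change by genotype was -0.31 ± 0.11 (adjusted p = 0.0563 in the edgeR test). That value missed the threshold, which DESeq2 (adjusted p = 0.0463) and limma voom with quality weights (adjusted p = 0.0378) passed, as did the edgeR fit without WT CD library 5 (0.0330), Gαq CD library 9 (0.0253), WT ERTU library 13 (0.0373) or WT ERTU library 14 (0.0399).

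Fth1 (chr19:9980598-9985098, plus strand), the ferritin heavy chain that oxidises iron for storage, was lower in Gαq hearts. It was 1823, 1561, 2048 and 1717 CPM in WT CD libraries 1, 2, 4 and 5, and 1258, 1360, 1215, 1252 and 1500 CPM in Gαq CD libraries 6 to 10. On ERTU it was 2033, 1678, 2090, 2212 and 1581 CPM in WT libraries 11 to 15 and 1854, 1024, 1596 and 1533 CPM in Gαq libraries 16, 17, 18 and 20. On CD every Gαq library lay below every WT library, as was so (in either direction) for 9.29% of all genes tested, while on ERTU the genotypes overlapped. Over both diets the mean was 1399 ± 248 CPM (SD, n = 9) in Gαq and 1860 ± 241 CPM (n = 9) in WT, with 7 of 9 Gαq libraries below all WT libraries. The log2 fold change was -0.40 ± 0.10 (SE), or 1.32-fold lower in Gαq, with an adjusted p of 0.00749 in the edgeR test, and the adjusted p stayed between 0.00276 and 0.021 with any 1 library left out. The summed fibroblast markers moved the other way with genotype (above), and their part in the Fth1 value was not tested.

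Taken by diet, the Fth1 log2 fold change of Gαq against WT was -0.44 ± 0.15 on CD (adjusted p = 0.0709 in the edgeR test) and -0.35 ± 0.15 on ERTU (adjusted p = 0.158). The CD value passed the threshold with DESeq2 (adjusted p = 0.0315), with limma voom (adjusted p = 0.0347) and in the edgeR fit without Gαq ERTU library 17 (adjusted p = 0.0248). ERTU against CD gave 0.10 ± 0.15 in WT and 0.19 ± 0.15 in Gαq, and the interaction was 0.09 ± 0.21 on the log2 scale.

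Ftl1 (chr7:45457944-45459884, minus strand), the ferritin light chain that seeds the iron core, was not called. It was 189, 138, 151 and 179 CPM in WT CD libraries 1, 2, 4 and 5, and 147, 151, 191, 121 and 155 CPM in Gαq CD libraries 6 to 10. On ERTU it ranged from 134 to 166 CPM in WT (median 161, n = 5) and from 121 to 183 CPM in Gαq (n = 4). All groups overlapped, and the log2 fold change by genotype was -0.04 ± 0.09 (adjusted p = 0.819 in the edgeR test). The annotated pseudogene Ftl1-ps1 took 55.2% to 62.6% as many reads as Ftl1 in each library, so the division of reads between both is uncertain. With their reads summed, a setting chosen after seeing the data, the log2 fold change by genotype was again -0.04. Macrophages are rich in ferritin light chain, and the summed level of 10 macrophage markers, all detected, was 363 to 593 CPM in WT and 389 to 725 CPM in Gαq libraries. Their part in the Ftl1 level was not tested. Ncoa4 (chr14:32159865-32179855, plus strand), which hands ferritin to autophagy, stayed between 18.2 and 28.5 CPM in all 18 libraries, with a log2 fold change by genotype of 0.00 ± 0.09 and by diet of -0.10 ± 0.09.

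**Figure D2:**
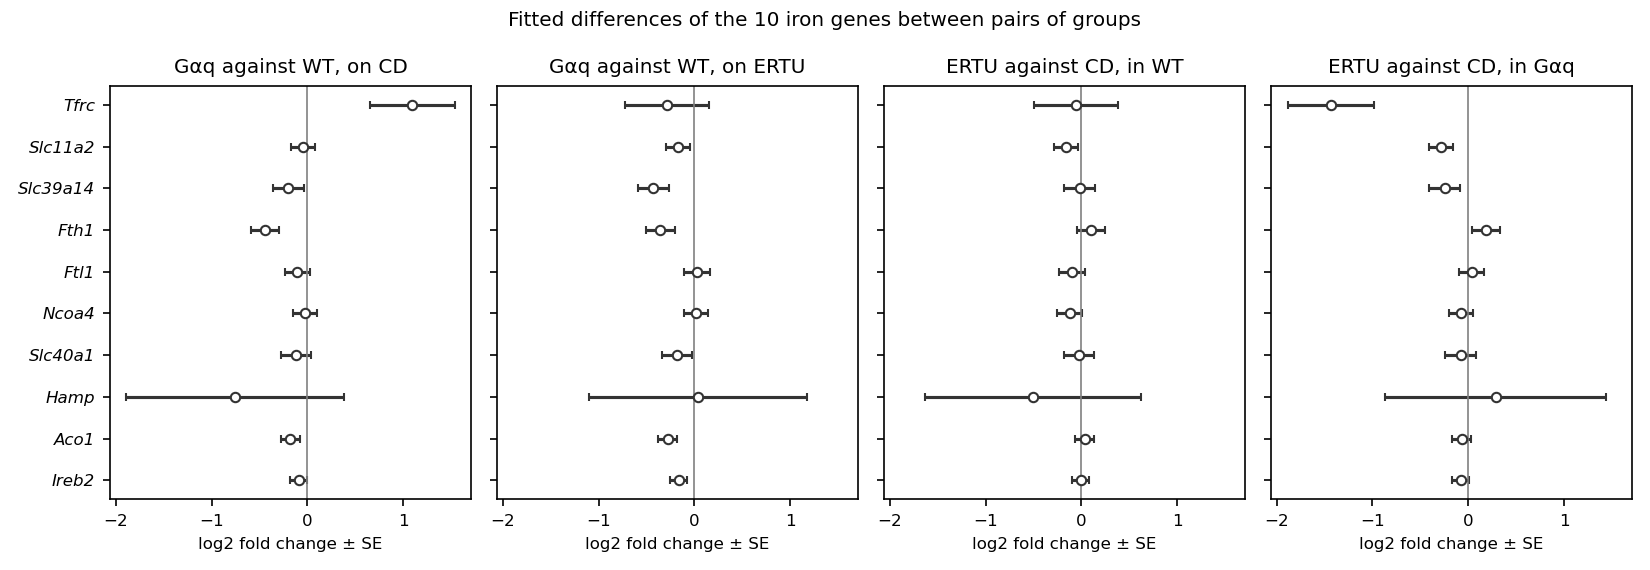
Fitted log2 fold change of the 10 iron genes in 4 comparisons of 2 groups, from the edgeR model with 1 mean per group. Open circles are estimates and bars their SE, and no value passed an adjusted p of 0.05. Tfrc lies at 1.10 for Gαq against WT on CD and at -1.43 for ERTU against CD in Gαq, and the SE bars of Hamp are the widest in each panel.

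Slc40a1 (chr1:45908068-45926523, minus strand), the exporter ferroportin, was 29.9, 27.7, 18.3 and 34.5 CPM in WT CD libraries 1, 2, 4 and 5, and 23.8, 28.3, 25.6, 20.1 and 28.8 CPM in Gαq CD libraries 6 to 10. On ERTU it was 25.8, 35.1, 28.6, 23.0 and 23.1 CPM in WT and 25.0, 21.2, 25.1 and 24.7 CPM in Gαq libraries. The lowest library of all was WT CD library 4, which had the highest Tfrc of its group, and all groups overlapped. The log2 fold change was -0.15 ± 0.11 by genotype (adjusted p = 0.374 in the edgeR test) and -0.05 ± 0.11 by diet (adjusted p = 0.911).

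Hamp (chr7:30942368-30944032, minus strand), which encodes hepcidin and is made mainly in liver, was near the limit of counting. It had 38 reads in WT CD library 5, 27 in Gαq CD library 8, 33 in WT ERTU library 14 and 34 in Gαq ERTU library 20, and 0 to 6 reads in each of the other 14 libraries. Those 4 libraries were also the highest of their group in the summed atrial transcripts Myl7, Myl4 and Sln, at 223, 702, 246 and 481 CPM, against 2.14 to 156 CPM in the rest. These 3 transcripts were picked from a list of 8 atrial markers after values were seen. The whole list, in which Nppa made up 38.7% to 99.7% of the summed CPM, did not follow Hamp: WT CD library 1 (717 CPM) was above library 5 (669 CPM), Gαq CD library 8 (12647 CPM) was second lowest of its group, and Gαq ERTU library 16 (21370 CPM) was above library 20 (14780 CPM). Without Nppa the other 7 summed to 410, 994, 432 and 659 CPM in the 4 libraries with most Hamp reads and to 55.3 to 298 CPM in the rest. The same 4 libraries were the highest of their group in summed fibroblast markers (3073, 4276, 2752 and 3478 CPM), in summed macrophage markers (593, 725, 549 and 605 CPM) and in the mean log2 CPM of fat markers (2.52, 3.08, 2.78 and 3.90). The last 2 depended on the measure. In summed fat markers Gαq CD library 8 (649.8 CPM) was below libraries 6 (897.9 CPM) and 10 (1210 CPM). In the mean log2 CPM of macrophage markers Gαq ERTU library 20 (5.089) was below library 18 (5.100). The liver marker albumin (Alb) had 461 reads over all 18 libraries, of which 294 were in WT ERTU library 14 and 3, 10 and 7 in the other 3 libraries with most Hamp reads. The summed level of 8 liver markers was 3.30 to 55.2 CPM, highest in WT ERTU library 14. The part of any of these tissues or cells in the Hamp reads was not tested. The log2 fold change of Hamp by genotype was -0.36 ± 0.79 and by diet -0.12 ± 0.79, so no difference was detectable at this depth. The neighbouring near-copy Hamp2, looked at after its values were seen, had 6, 6, 6 and 7 reads in the WT CD libraries and 0 to 3 reads in each of the other 14, and was too low to enter the test.

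Aco1 (chr4:40143081-40198338, plus strand), the IRP1 gene whose protein is an aconitase when it holds an iron-sulfur cluster, was lower in Gαq hearts. It was 55.4, 56.9, 45.9 and 52.1 CPM in WT CD libraries 1, 2, 4 and 5, and 53.1, 43.3, 41.9, 51.5 and 42.7 CPM in Gαq CD libraries 6 to 10. On ERTU it was 55.2, 56.6, 51.6, 45.4 and 60.5 CPM in WT and 42.9, 45.1, 42.9 and 46.7 CPM in Gαq libraries. Although 6 of 9 Gαq libraries lay below all WT libraries, the ranges overlapped. The means were 45.6 ± 4.10 CPM (SD, n = 9) in Gαq and 53.3 ± 5.05 CPM (n = 9) in WT, a log2 fold change of -0.23 ± 0.07, or 1.17-fold lower (adjusted p = 0.0224 in the edgeR test). The call was lost without a filter on low counts (adjusted p = 0.0597), and it held, at 0.0104 to 0.048, with any 1 library left out. Taken by diet, the Aco1 log2 fold change was -0.18 ± 0.10 on CD (adjusted p = 0.325 in the edgeR test). On ERTU it was -0.28 ± 0.10 (adjusted p = 0.0921 in the same test), and the interaction was -0.10 ± 0.14.

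Ireb2 (chr9:54863789-54912530, plus strand), the IRP2 gene, was not called. It ranged from 48.0 to 58.3 CPM in WT (median 53.0, n = 9) and from 43.5 to 59.1 CPM in Gαq libraries (median 48.1, n = 9). The log2 fold change by genotype was -0.13 ± 0.06 (unadjusted p = 0.0511, adjusted p = 0.159 in the edgeR test) and by diet -0.04 ± 0.06. The genotypes overlapped, and whether the Aco1 and Ireb2 differences over both diets were unequal was not tested, since their ratio was compared only within each diet (below).

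Ratios of 2 iron genes within a library do not depend on scaling between libraries, and 4 of them were compared between pairs of groups by 2-sided exact permutation tests, 16 in all, in which the smallest p that 4 against 5 libraries allow is 0.0159. The ratio of Fth1 to Ftl1, heavy to light ferritin chain, had a geometric mean of 12.4 in WT ERTU and 9.48 in Gαq ERTU, a log2 difference of -0.39 (exact p = 0.0159, the smallest possible, and 0.254 adjusted over the 16 tests). On CD it was 10.9 in WT and 8.68 in Gαq, a log2 difference of -0.33 (exact p = 0.111). All ratios are of CPM without scaling to transcript length, and the division of reads between Ftl1 and Ftl1-ps1 is uncertain (above), so the size of this ratio is not that of the 2 messages. The ratio of Tfrc to Fth1, importer to store, had a geometric mean of 0.0385 in Gαq CD against 0.0144 in WT CD, 0.0133 in WT ERTU and 0.0150 in Gαq ERTU. Its log2 difference was 1.42 between the CD groups (exact p = 0.0635, adjusted 0.356) and -1.36 for ERTU against CD in Gαq (exact p = 0.111, adjusted 0.356). The ratios of Slc40a1 to Tfrc and of Aco1 to Ireb2 gave exact p values of 0.0952 or more. No ratio passed an adjusted p of 0.05, which a single ratio at the smallest possible p could not reach over 16 tests (0.254), so that these tests say little on whether ratios were equal.

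Within groups, the 10 genes differed widely in how much they varied. The SD of log2 CPM about the group means was 1.54 for Hamp and 0.76 for Tfrc, above 99.8% and 96.7% of all tested genes, whose median was 0.23. Ireb2 (0.12) and Aco1 (0.14) lay at the 6.26th and 14.2th percentile. The other 6 genes had an SD of 0.19 to 0.26.

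The importers moved together from library to library, and some genes with other roles moved with them. In each of the 4 groups the library with the highest Tfrc also had the highest Slc11a2 and the highest Slc39a14, and likewise the highest Alas1, the first enzyme of heme synthesis, which was looked at after its values were seen. It had the lowest Slc40a1 in 3 groups and the lowest Ftl1 in 3 groups, while its Fth1 was lowest in 2 groups and highest in 1. Pearson's r of log2 CPM about the group means over the 18 libraries was 0.88 for Tfrc and Slc11a2, 0.91 for Slc11a2 and Slc39a14, and 0.77 for Tfrc and Slc39a14. It was -0.51 for Tfrc and Slc40a1, -0.52 for Tfrc and Ftl1, -0.38 for Tfrc and Fth1, and 0.60 for Fth1 and Ftl1. With Pdk4, r was -0.88 for Tfrc, -0.72 for Slc11a2 and 0.62 for Slc40a1. Some genes with other roles ran as close to the importers. For Tfrc, Slc11a2 and Slc39a14 in turn, r was 0.91, 0.95 and 0.86 with the hexokinase Hk2. With the kinase Camk2d it was 0.90, 0.91 and 0.84. Both were looked at as the genes most like Slc11a2 and Tfrc (below). These are descriptions over libraries that were scaled together, with no test.

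**Figure D3:**
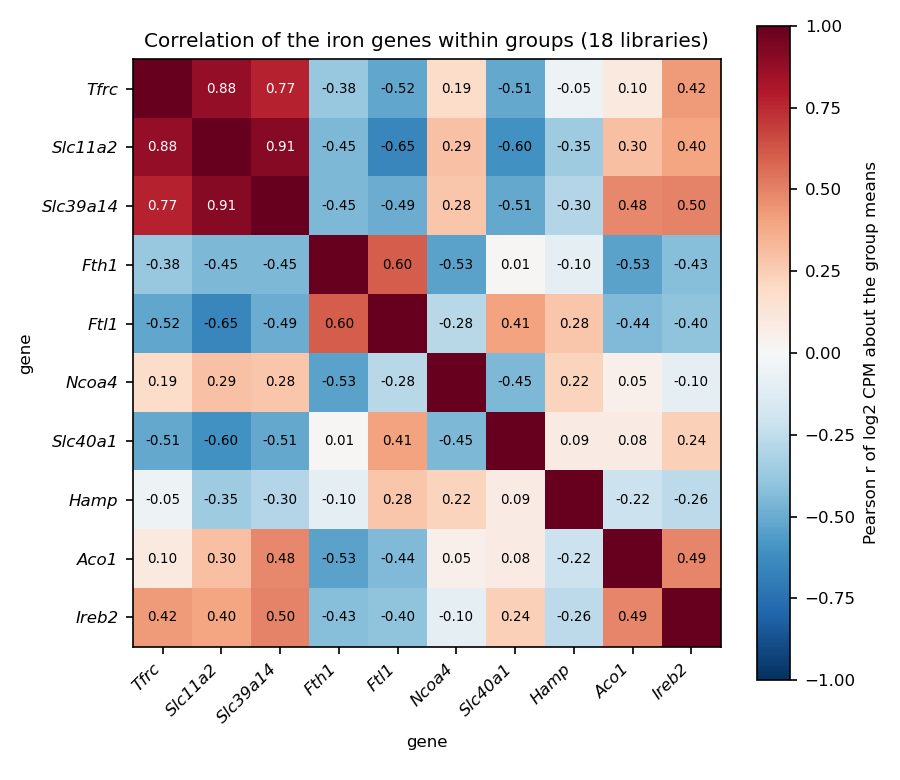
Pearson's r of log2 CPM about the group means, over 18 libraries, for each pair of the 10 iron genes (colour scale from -1 to 1, values printed in the cells). Tfrc, Slc11a2 and Slc39a14 form a block with r of 0.77 to 0.91, and Slc40a1, Ftl1 and Fth1 run against them (Fth1 at -0.38 to -0.45).

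**Figure D4:**
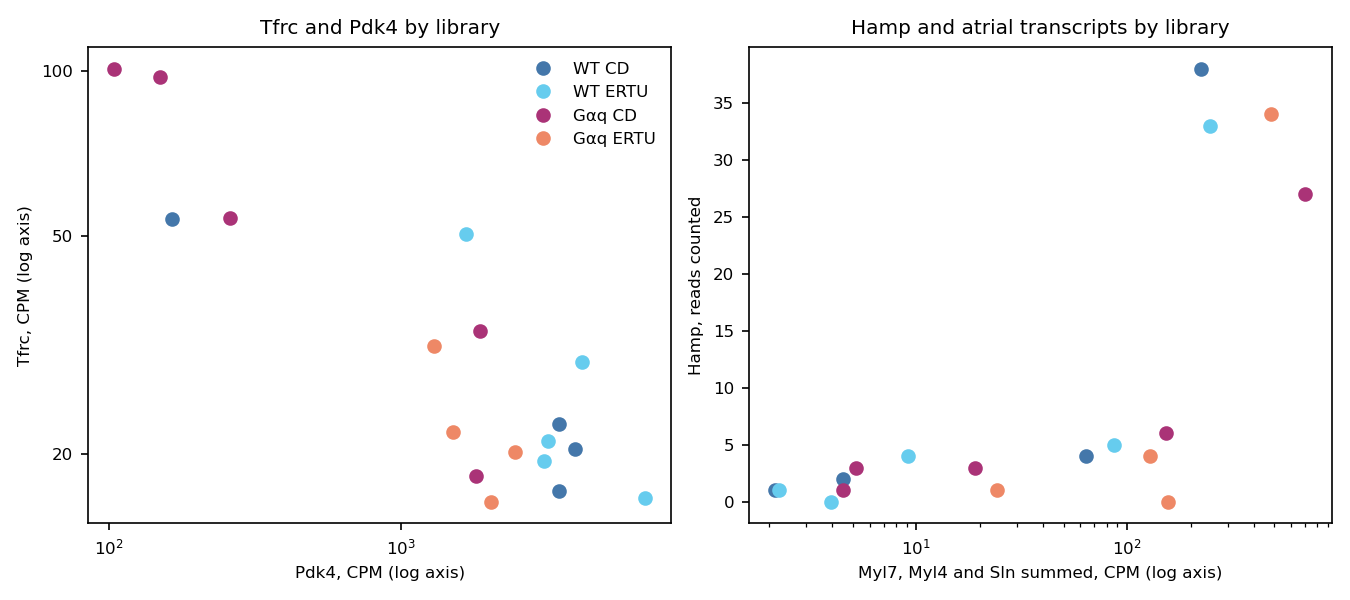
Left, Tfrc against Pdk4, in CPM on log axes, and right, Hamp reads (linear axis) against the summed CPM of Myl7, Myl4 and Sln (log axis), each point a library coloured by group. Tfrc is highest, at 101 CPM, where Pdk4 is lowest, at 105 CPM, and the 4 libraries with 27 or more Hamp reads have the highest summed atrial transcripts.

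The genes most like each member over the 18 libraries, by Pearson's r of log2 CPM without regard to group, are given as a description. For Tfrc they were Camk2d (r = 0.94), a calcium-dependent kinase of heart muscle, Tuba8 (0.93) and Tmem50b (0.92). For Slc11a2 they were Hk2 (0.92), the hexokinase that starts glucose use, Cstf2 (0.91) and Strip2 (0.90). For Slc39a14 they were Rtn4ip1 (0.93), Smpd1 (0.93) and Rnf128 (0.92). For Fth1 they were Atp5e (0.91), a subunit of ATP synthase, Gm44386 (0.91) and Chchd7 (0.90). For Ftl1 they were its pseudogene Ftl1-ps1 (0.96), Ms4a6d (0.87) and Stard5 (0.82). For Hamp they were Gas1 (0.83), Lsamp (0.82) and Tppp3 (0.81). For Aco1 they were Tbl3 (0.92), Gab1 (0.90) and Cluh (0.89), and for Ireb2 they were Mars2 (0.86), Cnot6l (0.86) and Iws1 (0.84). For Ncoa4 they included Fbxo25 (0.77) and Cpxm2 (0.76), and for Slc40a1, which had the lowest r of the 10 genes, they were 1810021B22Rik (0.67), Bivm (0.67) and Mri1 (0.65).

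Around the 10 genes, 9 lists of iron genes held 85 others, of which 77 were tested. By genotype 25 of these 77 were called (32.5%, against 19.6% of all genes), with 20 lower and 5 higher in Gαq. Of the 25, 12 were in the list of mitochondrial iron and iron-sulfur clusters (below). The 5 higher genes, named after their values were seen, were Trf, Steap2, Cp, Hmox2 and Slc25a37. The median log2 fold change of the 77 was -0.12, against 0.00 for all genes. By diet, by the interaction and by ERTU within either genotype, 0 of 77 were called. On CD 5 of 77 were called (6.49%, against 8.1% of all genes), namely Hjv, Alad, Abcb8, Hspa9 and Nfs1, all lower in Gαq. On ERTU 8 of 77 were called (10.4%, against 8.17%), with Cp higher and 7 lower.

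**Figure D5:**
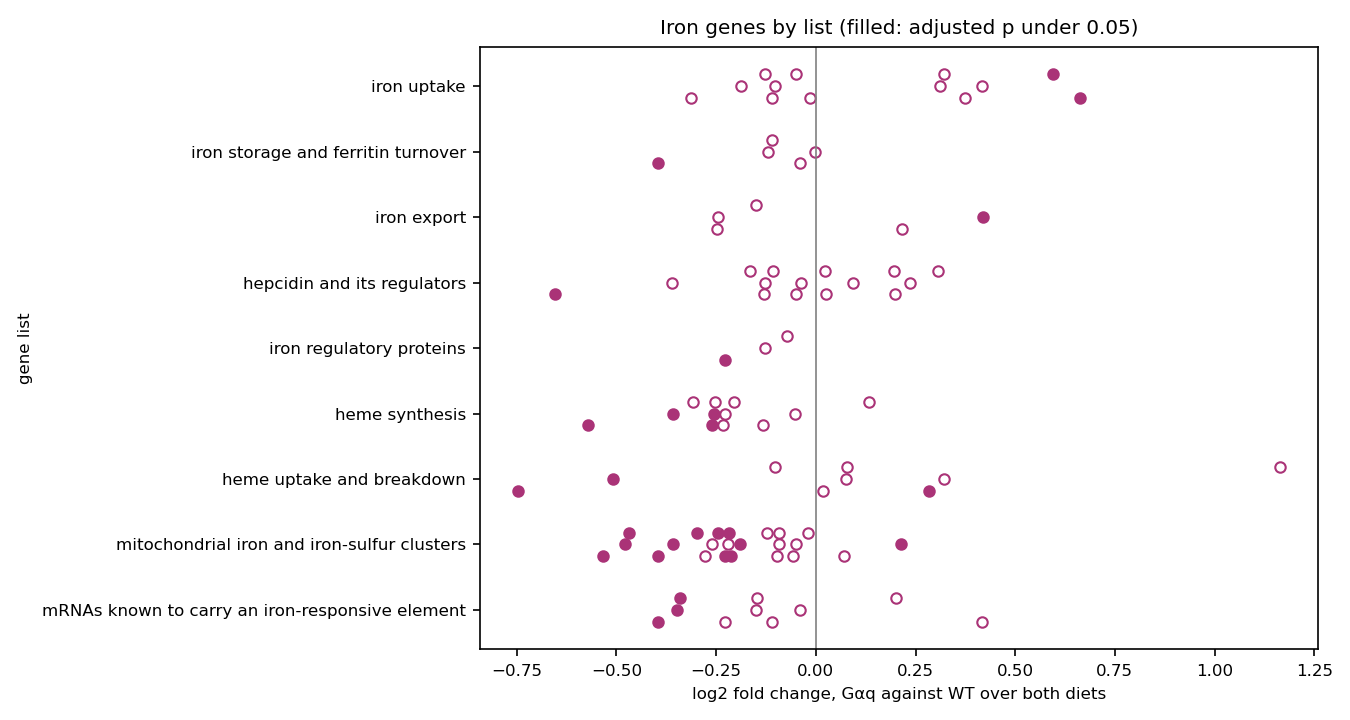
Log2 fold change of Gαq against WT over both diets (linear axis) for each tested gene of 9 iron lists, 1 row per list, the 10 genes included where they belong. Filled points passed an adjusted p of 0.05, and a gene may stand in 2 lists. Of 23 genes for mitochondrial iron and iron-sulfur clusters, 11 filled points lie below 0 and 1 above.

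Of the 5 genes higher in Gαq, 3 belong to the uptake and export lists. In the uptake list 2 of 13 tested genes were called, both higher: Trf (transferrin) at a log2 fold change of 0.59 ± 0.16 and Steap2, an endosomal iron reductase family member, at 0.66 ± 0.21, the latter at a mean of only 1.74 CPM in Gαq and 1.10 CPM in WT. In the export list 1 of 5 was called, Cp (ceruloplasmin), the oxidase that loads exported iron onto transferrin. Cp was 148 to 234 CPM in WT (median 185, n = 9) and 169 to 293 CPM in Gαq libraries (median 252, n = 9), with 5 of 9 Gαq libraries above all WT libraries. Its log2 fold change was 0.42 ± 0.09 (adjusted p = 0.00296 in the edgeR test).

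Among 15 tested genes for hepcidin and its regulators, only Hjv was called by genotype. Hjv encodes hemojuvelin, a co-receptor for bone morphogenetic proteins that is made in muscle and heart as well as liver. It was 129 to 187 CPM in WT (median 163, n = 9) and 74.7 to 127 CPM in Gαq libraries (median 101, n = 9), without overlap, as was so for 3.55% of all genes tested between the genotypes. The log2 fold change was -0.65 ± 0.10, and it was -0.63 ± 0.14 on CD (adjusted p = 0.00713 in the edgeR test) and -0.68 ± 0.14 on ERTU (adjusted p = 0.00403). In the list of iron regulatory proteins, 1 of 3 genes was called, Aco1, and in the storage list 1 of 5, Fth1.

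The called genes of heme synthesis and most of those of iron-sulfur clusters were lower in Gαq. In heme synthesis 4 of 12 genes were called, all lower, among them the enzymes Alad and Urod, where 19.6% of all genes tested were called and 9.92% were called lower. Alad was 87.4 to 112 CPM in WT and 50.8 to 76.5 CPM in Gαq libraries, without overlap (as for 3.55% of all genes tested), with a log2 fold change of -0.57 ± 0.08. In heme uptake and breakdown 3 of 9 genes were called, against the same 19.6%: the heme oxygenases Hmox1 (-0.51 ± 0.16) and Hmox2 (0.28 ± 0.07) in opposite directions, and the transporter Flvcr2 (-0.75 ± 0.18), which was only 3.10 ± 0.82 CPM in Gαq against 5.23 ± 1.37 CPM in WT (SD, n = 9).

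In the list of mitochondrial iron and iron-sulfur clusters 12 of 23 genes were called (52.2%, against 19.6% of all genes), 11 of them lower. Abcb8, a carrier of the inner mitochondrial membrane, had a log2 fold change of -0.53 ± 0.07 and a mean of 68.9 ± 8.01 CPM in Gαq against 100.2 ± 8.30 CPM in WT (SD, n = 9), without overlap. Hspa9, the chaperone mortalin that helps move clusters onto proteins, was at 788 ± 69.7 CPM against 1104 ± 125.8 CPM, also without overlap (-0.48 ± 0.08). Nfs1, the desulfurase that gives the sulfur, was 92.4 ± 5.69 CPM against 107 ± 5.46 CPM, again without overlap (-0.21 ± 0.05). The genotypes did not overlap for 3.55% of all genes tested, and the genes here were named by smallest adjusted p, which favours such genes. Abcb10 (-0.40 ± 0.08), Fdx1 (-0.30 ± 0.07) and Fdxr (-0.36 ± 0.09), the latter 2 an electron carrier and its reductase, overlapped between genotypes. Abcb8, Hspa9, Alad and Hjv were called on each diet. Nfs1 was called on CD (-0.26 ± 0.08, adjusted p = 0.0409 in the edgeR test) and not on ERTU (-0.17 ± 0.08, adjusted p = 0.186). Its interaction, the test of the difference between diets, was 0.08 ± 0.11 (adjusted p = 0.9996 in the same test). None of these genes was called in the interaction.

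Of 10 messages known to carry an iron-responsive element, 3 were called by genotype, all lower in Gαq, among them Fth1 and Epas1, against 19.6% called and 9.92% called lower among all genes. Epas1, the hypoxia-inducible factor HIF-2 alpha, had a log2 fold change of -0.34 ± 0.09. Tfrc, Slc11a2, Slc40a1 and Ftl1 of this list had estimates of 0.42, -0.11, -0.15 and -0.04 by genotype and were not called. The summed level of 8 endothelial markers was 1282 to 1702 CPM in WT and 1153 to 1376 CPM in Gαq libraries, and that of 7 measured red blood cell markers 389 to 1451 CPM in WT and 460 to 1102 CPM in Gαq, and their part in these list counts was not tested.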

How the data were processed

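Poly(A) RNA of left ventricle was sequenced on an Illumina NextSeq as 100-bp paired-end reads. The authors aligned reads with STAR 2.6.0c to mm10 and made the deposited counts of read pairs per Ensembl gene (nuclear genes, unique proper pairs on the same strand) with featureCounts of Subread 1.6.2. A second, variance-stabilised table was not used. Of 55450 gene IDs, 55104 (99.4%) matched GENCODE M21, which gave symbols and GRCm38 positions.

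Counts were tested with edgeR 4.0.16 (R 4.3.3): TMM scaling, filterByExpr on the 4 groups, glmQLFit and glmQLFTest, with p-values adjusted by Benjamini-Hochberg over 16270 genes and a threshold of 0.05. Genotype and diet came from a model with both terms, and pairs of groups and the interaction from a model with 1 mean per group. CPM are TMM-scaled, and log2 CPM use a prior count of 2. Scripts were tested on simulated data. SE is the absolute log2 fold change over the root of F. Alternatives were DESeq2 1.42.0, limma 3.58.1 voom, other scaling and filters, and left-out libraries. Column numbers of the table do not match the sample numbers of the labels, so columns were assigned to groups only. The study's methods give 4 to 5 hearts per group, which fits 1 library per heart.

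The 10 genes and the lists were chosen with earlier results of these data known. Of the other list genes, up to 12 were named by smallest adjusted p among those called in any comparison, and for each of the 10 genes the 3 genes of highest r with a mean log2 CPM of at least 1. Some genes that these rules name or that the counts include are not reported here.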

Additional observations from a re-analysis of the deposited data

Results flagged for a closer look

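Of 56 sets of values searched (log2 CPM of the 10 genes and the 4 ratios, in 4 groups), 2 had a library whose distance from its nearest neighbour, as a share of the range within the group, was above the critical value of Dixon's test, where chance at 1 in 20 gives 2.8. Slc40a1 in Gαq ERTU library 17 was the lowest of its group at a log2 CPM of 4.41, against 4.63 to 4.66 in the others, a gap of 0.903 of the range. The log2 ratio of Slc40a1 to Tfrc in WT ERTU library 15 was -1.12, against 0.24 to 0.63 in the others, a gap of 0.779 of the range.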

How the results depend on the processing

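No paired analysis was possible because no 2 groups have a library number in common in the table. Among the single genes, 427 of 449 values under other settings kept their direction and their side of the threshold, and 1164 of 1246 with 1 library left out. The number of the 10 genes called by genotype was 1 without a filter on low counts, where Aco1 was lost. On CD it was 1 with DESeq2 and with limma voom (Fth1), and 0 to 1 with a library left out. On ERTU it was 1 with voom and 1 without the 4 libraries highest in atrial light chains, a setting chosen after seeing the data (Aco1 in both, log2 fold change -0.29 and -0.36), and 0 to 1 with a library left out (without WT ERTU library 14). Without those 4 libraries, Fth1 and Aco1 remained called by genotype (adjusted p = 0.0417 and 0.0307 in the edgeR test). No called value changed sign. Of values not called, 15 changed sign under settings that were not a single left-out library. With voom these were Tfrc by ERTU in WT (0.064), Hamp by genotype (0.25), by diet (0.0091) and by ERTU in Gαq (-0.067), Slc40a1 by diet (0.033) and by ERTU in WT (0.090), Ftl1 by diet (0.00039) and Ireb2 by ERTU in WT (0.0078). Without the 4 libraries highest in atrial light chains they were Slc40a1 by diet (0.035) and by ERTU in WT (0.16), Ftl1 by diet (0.0092) and Ireb2 by ERTU in WT (0.025). The others were Hamp by Gαq on ERTU with DESeq2 (-0.0044), and Ncoa4 by genotype without a filter (0.0028) and with a mean CPM of at least 1 (0.00096). With 1 library left out, log2 fold changes by genotype ranged from -0.082 to 0.0040 for Ftl1, -1.21 to 0.54 for Hamp and -0.056 to 0.035 for Ncoa4. Those of Tfrc ranged from -0.39 to 0.45 by ERTU in WT and from -0.49 to 0.053 by Gαq on ERTU. Log2 differences of ratios ranged from -0.071 to 0.063 (Aco1 to Ireb2, ERTU in Gαq), -0.12 to 0.0019 (Aco1 to Ireb2, Gαq on CD), -0.53 to 0.32 (Slc40a1 to Tfrc, ERTU in WT), -0.26 to 0.28 (Slc40a1 to Tfrc, Gαq on ERTU), -0.43 to 0.17 (Tfrc to Fth1, ERTU in WT) and -0.18 to 0.485 (Tfrc to Fth1, Gαq on ERTU). The cause of these changes was not tested.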
